A study of Mus musculus with 12 samples.

Results

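Back skin of vehicle-treated mice labelled Lcn2-/- was compared with that of vehicle-treated wild-type (WT) mice. These 6 mice, 3 in each group, are the control animals of a series of 12, and they were chosen by their labels alone. All were female, 8 to 10 weeks old, and their shaved backs received vehicle cream once a day for 6 days. The knockout line was bought on a C57BL/6 background and the WT mice were littermates. Which part of Lcn2 is deleted in the line is not given in the sources used here. The deposited labels call the genotype a knockdown and the treatment of these mice none, whereas the study's methods describe a knockout and a vehicle. The other 6 mice of the series, 3 of each genotype label, received 5% imiquimod (IMQ) cream, a TLR7 agonist that produces psoriasis-like lesions in mouse skin. They serve here as separate animals in which the same genotype difference was measured.

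Lcn2 encodes lipocalin 2, a secreted protein that binds iron-loaded bacterial siderophores and is produced by neutrophils and by inflamed epithelium. Mouse back skin holds epidermis, hair follicles that pass through cycles of growth (anagen) and rest (telogen), fibroblasts, fat, resident macrophages and a thin sheet of skeletal muscle. A piece of skin from a single mouse therefore carries its follicle stage and its share of each layer into the RNA. Interferon-stimulated genes are switched on by type I interferon through transcription factors that bind a short DNA motif in their promoters.

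The libraries of the 6 mice held 17406619 to 28592110 counts on genes. Levels are given as CPM, the counts of a gene for every 1000000 counts of its TMM-scaled library. A total of 3 counts would read as 0.105 to 0.172 CPM before the TMM scaling, which is the lower limit that counting error alone sets. The 13 epidermal and stress keratins together took between 6494 and 10050 CPM, and 16 photoreceptor genes, listed because an extraction label mentions retinas, took between 5.49 and 9.57 CPM, so the libraries had the markers of skin. Mice of the same group differed widely. The first principal component of the 6 libraries held 50.6% of their variance and placed WT mouse 2 at one end (76.2) and mouse 2 labelled Lcn2-/- at the other (-69.8), with mouse 1 labelled Lcn2-/- on the side of WT mouse 2 (37.6). Among 12265 protein-coding genes with a mean of at least 5 CPM, 332 had a range above 4-fold within the WT group, and WT mouse 2 was the mouse farthest from the middle one for 66.6% of them. In the mice labelled Lcn2-/- 142 genes had such a range, and mouse 1 stood farthest for 85.2%.

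Lcn2 itself was counted in every library labelled Lcn2-/-. The counts were 136, 201 and 86 in the WT mice and 320, 173 and 357 in the mice labelled Lcn2-/-, or 6.29, 8.64 and 4.57 CPM against 10.5, 9.22 and 15.9 CPM. Every mouse labelled Lcn2-/- lay above every WT mouse. The log2 difference of 0.87 (SE 0.41) had an adjusted p of 0.794 by edgeR with Benjamini-Hochberg adjustment (0.0579 before it). It stayed between 0.60 and 1.16 when single mice were left out. The reads thus went against the label, in vehicle-treated skin where Lcn2 was low in both groups, and "labelled Lcn2-/-" is used throughout for this reason. After IMQ the log2 difference was -1.49 (SE 0.40, adjusted p = 0.0525). Because reads are counted over the whole gene, a transcript that lacks part of it would still be counted. Of 19 tested genes of lipocalin 2 and iron handling, 0 were called and the median log2 difference was -0.26. Steap3, an endosomal iron reductase, measured 91.96, 116 and 55.2 CPM in the WT mice and 58.8, 39.1 and 38.8 CPM in the others (-0.94, adjusted p = 0.512), with overlapping groups. Slc22a17, a receptor for lipocalin 2, differed by -0.11 (adjusted p = 0.982).

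The gene next to Lcn2 had a small p-value but was not called, with a difference under 2-fold. 1110008P14Rik, at chr2:32377097-32381938 on the minus strand (GRCm38), lies 2695 bases from Lcn2 (chr2:32384633-32388252, minus strand) and was looked at after its values were seen. Most of its length lies within Ciz1 on the other strand, and whether the counting used strand is not given in the sources used here, so reads of the pair may be shared over most of the gene. 1110008P14Rik measured 18.1, 17.2 and 21.4 CPM in the WT mice and 37.4, 32.3 and 35.8 CPM in the mice labelled Lcn2-/-. The groups did not overlap, with a log2 difference of 0.89 (SE 0.14, adjusted p = 0.0786). In the IMQ-treated mice, which are other animals, it was again higher in those labelled Lcn2-/-, by 0.99 (SE 0.14, adjusted p = 0.0215). Ciz1 differed by 0.27 (adjusted p = 0.782) and by 0.01 after IMQ. Slc25a25, a mitochondrial carrier 26235 bases away on the other side, differed by -0.62 (adjusted p = 0.479) in the control mice and by -0.05 after IMQ, and Ptges2, between it and Lcn2, differed by 0.06.

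**Figure D1:**
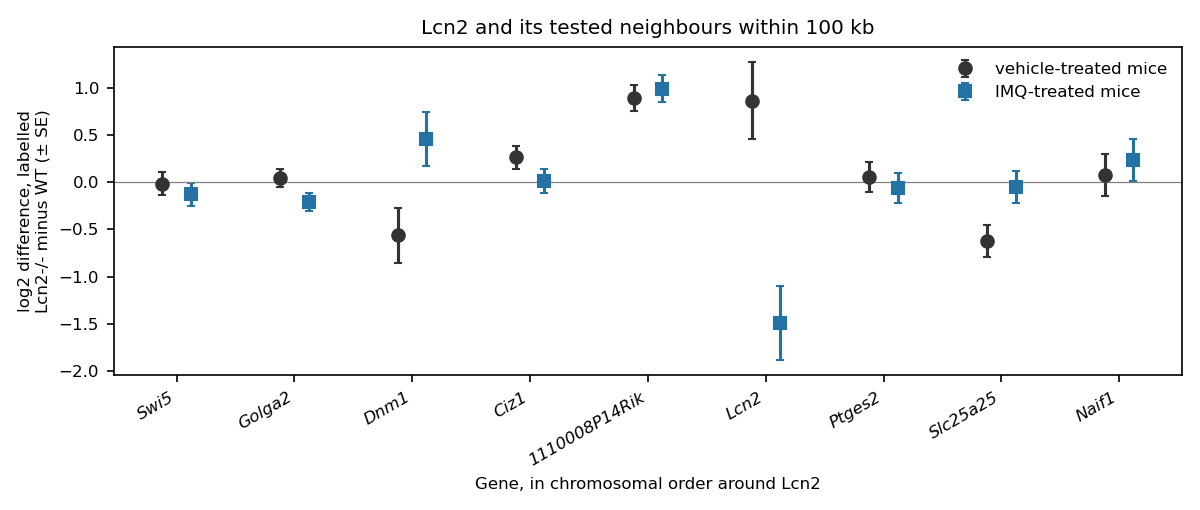
The log2 difference (labelled Lcn2-/- minus WT, points, with SE as bars) of Lcn2 and of the tested genes within 100 kb of it, in chromosomal order, in vehicle-treated (black circles) and IMQ-treated (blue squares) mice, 3 mice per group. 1110008P14Rik is higher in both sets of mice (0.89 and 0.99), while Lcn2 is higher in the vehicle-treated (0.87) and lower in the IMQ-treated mice (-1.49).

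Within 10 Mb of Lcn2, 283 genes were tested, of which 3 were called higher and 8 lower by an unadjusted p under 0.05 and a fold above 2, a share of 3.89%. Among all tested genes 1.35% were called higher and 0.928% lower by the same rule. The 3 higher genes were Il1f6, which encodes the cytokine IL-36α, and the non-coding genes Gm13387 and Gm13523. The 8 lower genes were 6530402F18Rik, Adamtsl2, Endog, Fam78a, Fut7, Gbgt1, Gfi1b and Ier5l. Only Il1f6, Gm13387, Gm13523, 6530402F18Rik, Fut7 and Ier5l of these 11 had groups that did not overlap. Fut7, a fucosyltransferase that makes selectin ligands on leukocytes, measured 0.970, 0.989 and 1.12 CPM in the WT mice and 0.394, 0.373 and 0.402 CPM in the others. Fut7 had close values within each group, although its adjusted p was 0.73. Gfi1b, a transcription factor of erythroid cells and megakaryocytes, rested on WT mice 1 and 2 (1.52 and 1.98 CPM), since WT mouse 3 (0.160 CPM) was as low as the mice labelled Lcn2-/- (0.160 to 0.394 CPM). The median log2 difference of the 283 genes was -0.03.

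Across all 18529 tested genes the median log2 difference was 0.0007, and 1 gene was called higher and 1 lower with an adjusted p under 0.05 and a fold above 2 (0.0054% in each direction). The gene called higher was Cxcl10, a chemokine that attracts T cells and is strongly induced by interferon. The gene called lower was Ky, a muscle protein needed for the upkeep of muscle fibres. The number depended on the tool and on single mice, with 49 higher and 30 lower by DESeq2 on all 12 mice, 0 of either by edgeR on the 6 control mice (239 and 154 without adjustment), 9 higher without mouse 1 labelled Lcn2-/-, and 11 lower without WT mouse 3. Without adjustment, 250 genes (1.35%) were higher and 172 (0.928%) lower by more than 2-fold in edgeR. The gene lists described below were read by this unadjusted rule, so each count of called members stands beside these shares. Of the members counted in them, only Cxcl10 also passed with adjustment. A p under 0.05 with no fold threshold was met by 491 higher genes (2.65%) and 732 lower genes (3.95%). Every mouse labelled Lcn2-/- lay above every WT mouse for 777 genes (4.19%) and below for 959 (5.18%).

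Interferon-inducible transcripts made up 7 of the 10 higher genes with the smallest p-values among those with a fold above 2, a mean of 1 CPM or more and groups that did not overlap. Cxcl10 measured 3.65, 4.64 and 5.58 CPM in the WT mice and 99.7, 46.9 and 171 CPM in the mice labelled Lcn2-/-. Even the lowest of the latter was far above the highest WT mouse. The log2 difference was 4.52 (SE 0.50, adjusted p = 0.0132, edgeR). The adjusted p rose above 0.05 without WT mouse 1 (0.204), without WT mouse 2 (0.0947) and without mouse 3 labelled Lcn2-/- (0.0562). It also did so with no filter on low counts (0.0739) and with a replicate block for the mouse number (0.138). The adjusted p was 0.75 by edgeR on the 6 control mice alone but 2.54e-20 by DESeq2 on the same mice. The log2 difference stayed between 3.99 and 4.87 in these fits and without each of the other mice.

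The other interferon genes with the smallest p-values had a similar arrangement of the mice labelled Lcn2-/-. WT mouse 3, the highest WT mouse for Cxcl10, was the lowest for these other genes. Ifit1, which binds foreign RNA that lacks the proper cap, measured 21.1, 33.0 and 8.40 CPM in the WT mice and 158, 96.0 and 288 CPM in the mice labelled Lcn2-/- (log2 difference 3.11, SE 0.47, adjusted p = 0.0769). Rsad2, the antiviral radical-SAM enzyme viperin, measured 15.02, 21.7 and 5.90 CPM against 87.5, 62.9 and 226 CPM (3.14, SE 0.50, adjusted p = 0.0861). Mx1, an antiviral dynamin-like GTPase, measured 8.60, 15.2 and 3.72 CPM against 59.5, 43.3 and 121 CPM (3.02, SE 0.49, adjusted p = 0.0861). In each of these genes WT mouse 3 was the lowest of the 6 and mouse 3 labelled Lcn2-/- the highest, and the groups did not overlap. Mx2, its relative, ran from 1.22 to 4.51 CPM in the WT mice and from 18.5 to 58.9 CPM in the others (3.43, adjusted p = 0.0728). Cmpk2, a mitochondrial nucleotide kinase beside Rsad2, ran from 12.4 to 18.8 CPM and from 45.7 to 118 CPM (2.26, adjusted p = 0.054). Ifit1bl1, an Ifit family member that may share reads with its close relatives, differed by 2.59 (adjusted p = 0.208). Gm44613, an antisense gene whose reads cannot be assigned to a strand here, measured 0.878, 0.946 and 0.957 CPM against 2.79, 2.29 and 2.77 CPM (1.49, adjusted p = 0.208). It was among the same 10 genes, and so was Zc3h12a, the RNA-degrading enzyme Regnase-1 that limits inflammatory transcripts, with 19.2, 28.5 and 21.3 CPM against 46.2, 47.1 and 58.6 CPM (1.14, SE 0.17, adjusted p = 0.0728).

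**Figure D2:**
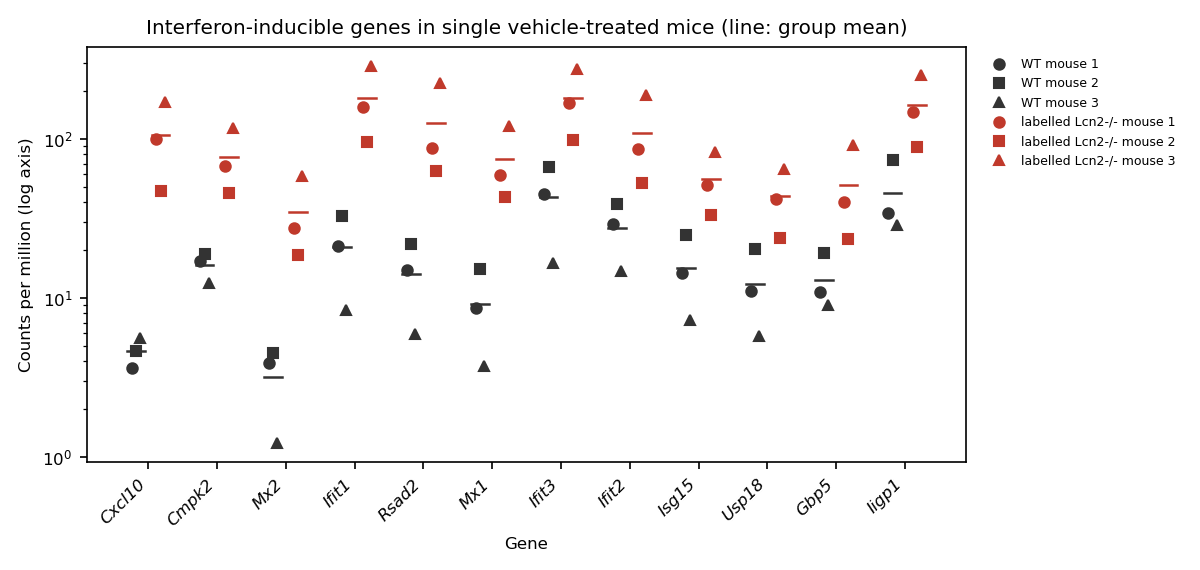
CPM (log axis) of 12 interferon-inducible genes in each vehicle-treated mouse, WT in black and labelled Lcn2-/- in red, with a line at each group's mean. The red points lie above the black points in all 12 genes, and mouse 3 of each group is usually the extreme one, highest among the red and lowest among the black apart from Cxcl10.

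Of 50 tested type I interferon-stimulated genes, 13 (26%) were called higher by an unadjusted p under 0.05 and a fold above 2 and 0 lower. Among all tested genes the shares were 1.35% and 0.928%. Of the 50 genes, 41 had a positive difference. Their median log2 difference was 0.63, beside 0.0007 over all tested genes. Every mouse labelled Lcn2-/- lay above every WT mouse for 12 of them, beside 4.19% of all tested genes. These 12 included Ifit2, Ifit3, Isg15 and Usp18 (log2 differences of 1.99, 2.08, 1.85 and 1.82, adjusted p 0.25 to 0.31) and Irf9, a transcription factor of the interferon response (0.69, adjusted p = 0.394). Some abundant members did not follow. Lgals3bp measured 204, 275 and 84.2 CPM in the WT mice and 170, 91.5 and 117 CPM in the others (-0.57, adjusted p = 0.912), and Ifi205 differed by -0.50 (adjusted p = 0.964). As a mean over the 50 genes, the 6 mice stood at 0.17, 0.82 and -0.99 (WT) and at 1.05, 0.29 and 1.37 (labelled Lcn2-/-) on the log2 scale relative to the WT mean. WT mouse 2 was therefore above mouse 2 labelled Lcn2-/-, and the groups overlapped in this mean. The number called was 10 without mouse 3 labelled Lcn2-/- and 26 without WT mouse 2. Red blood cell transcripts moved partly with these genes. The 7 erythroid markers, hemoglobin chains, Alas2 and Slc4a1 among them, together took 53.8, 139 and 24.9 CPM in the WT mice and 152, 106 and 239 CPM in the others. This sum put the 6 mice in the same order as the interferon mean. As a mean on the log2 scale, the markers stood at -0.18, 1.21 and -1.03 (WT) and at 1.08, 1.25 and 1.95 (labelled Lcn2-/-), which is another order. All 7 had a positive difference and 3 were called higher (42.9%, beside 1.35% of all tested genes). Slc4a1 was at 0 in WT mouse 3 and in mouse 1 labelled Lcn2-/-, and no marker had groups that did not overlap. The part of blood in the interferon difference was not tested.

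Interferon-inducible GTPases and the ligands of the receptor CXCR3 went the same way. Of 20 tested genes, 12 (60%) were called higher and 0 lower, beside 1.35% and 0.928% of all tested genes. A positive difference was seen in 19, and the median was 1.19. Gbp5, a guanylate-binding protein that promotes inflammasome activity, measured 10.95, 19.1 and 8.99 CPM in the WT mice and 40.0, 23.5 and 91.0 CPM in the others (1.98, adjusted p = 0.312). Iigp1, an immunity-related GTPase that attacks the vacuoles of intracellular parasites, measured 34.2, 73.3 and 28.8 CPM against 147, 89.5 and 254 CPM (1.85, adjusted p = 0.479). The number called fell to 5 without mouse 3 labelled Lcn2-/-, and was 8 without WT mouse 1 or WT mouse 3. Genes of antigen presentation were not called. None of 10 MHC class II genes and none of 15 genes of MHC class I and the immunoproteasome had an unadjusted p under 0.05, and their medians were -0.39 and -0.29.

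The promoters of the interferon genes are shown because these genes moved together and their shared motif can be seen. The interferon-stimulated response element was searched on both strands as 2 copies of GAAA separated by 2 bases of any kind (NN), in windows from 250 bases before to 50 after each gene start (RefSeq, GRCm38.p6). It was found for 21 of 38 type I interferon-stimulated genes that have such a window (55.3%) and for 11 of 13 GTPases and CXCR3 ligands (84.6%). The shares were 3.91% of tested genes with windows and 3.99% of all 27025 genes with windows. Among the type I genes it was found for 7 of 9 called higher and for 14 of 29 not called. Matches are in capitals in the sequences below, each written along the strand of its gene, and a match is a description of letters only. The windows lie at chr5:92348840-92349139 (Cxcl10, minus strand), chr19:34640639-34640938 (Ifit1, plus), chr12:26456403-26456702 (Rsad2, minus), chr4:156200769-156201068 (Isg15, minus) and chr19:34583279-34583578 (Ifit3, plus).
Cxcl10: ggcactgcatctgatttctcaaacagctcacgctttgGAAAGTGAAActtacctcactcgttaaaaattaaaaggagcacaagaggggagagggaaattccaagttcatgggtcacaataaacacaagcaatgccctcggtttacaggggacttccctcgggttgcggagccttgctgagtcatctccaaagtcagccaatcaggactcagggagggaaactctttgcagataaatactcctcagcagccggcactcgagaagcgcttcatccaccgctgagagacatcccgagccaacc
Ifit1: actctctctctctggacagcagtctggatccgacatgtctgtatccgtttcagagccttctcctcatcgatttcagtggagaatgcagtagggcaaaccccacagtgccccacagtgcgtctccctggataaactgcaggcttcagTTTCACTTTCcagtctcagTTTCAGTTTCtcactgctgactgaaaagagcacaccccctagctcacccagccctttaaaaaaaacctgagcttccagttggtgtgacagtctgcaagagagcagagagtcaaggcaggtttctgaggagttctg
Rsad2: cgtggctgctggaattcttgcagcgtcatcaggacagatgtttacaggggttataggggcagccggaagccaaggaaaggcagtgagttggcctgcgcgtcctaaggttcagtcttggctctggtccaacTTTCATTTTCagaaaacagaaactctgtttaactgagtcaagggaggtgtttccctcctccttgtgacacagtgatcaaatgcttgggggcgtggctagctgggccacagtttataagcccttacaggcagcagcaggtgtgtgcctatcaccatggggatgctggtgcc
Isg15: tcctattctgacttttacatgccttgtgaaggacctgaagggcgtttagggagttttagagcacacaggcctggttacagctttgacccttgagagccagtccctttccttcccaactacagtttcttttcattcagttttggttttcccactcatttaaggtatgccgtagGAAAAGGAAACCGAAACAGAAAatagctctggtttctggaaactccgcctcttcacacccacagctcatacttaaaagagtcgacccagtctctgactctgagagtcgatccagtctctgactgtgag
Ifit3: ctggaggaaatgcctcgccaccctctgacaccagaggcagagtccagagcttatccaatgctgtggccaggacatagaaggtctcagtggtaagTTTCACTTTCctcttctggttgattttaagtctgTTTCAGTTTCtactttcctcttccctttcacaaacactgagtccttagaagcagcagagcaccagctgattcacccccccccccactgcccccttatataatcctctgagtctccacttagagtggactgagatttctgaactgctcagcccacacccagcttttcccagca
In Cxcl10 the match begins 213 bases before the gene start. Isg15 holds 3 overlapping matches, which begin between 78 and 66 bases before the start, and Ifit1 and Ifit3 hold 2 each.

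Several cytokines and chemokines were called higher. Of 24 tested cytokines of the IL-17, IL-1, IL-20 and IL-6 groups, 5 (20.8%) were called higher and 0 lower, and the median was 0.61. Among all tested genes 1.35% were called higher and 0.928% lower by this rule. Il17f, which encodes interleukin 17F of the IL-17 axis, had 4, 4 and 2 counts in the WT mice and 25, 29 and 25 counts in the mice labelled Lcn2-/-. These are small counts, but the groups did not overlap (log2 difference 2.83, SE 0.44, adjusted p = 0.0786). Il1f6 measured 7.39, 5.07 and 8.99 CPM against 18.3, 18.7 and 16.9 CPM (1.33, SE 0.25, adjusted p = 0.208). The mice labelled Lcn2-/- were closely grouped for Il1f6 and all above the WT mice. Il1b, the inflammasome-processed interleukin 1β, measured 5.41, 5.59 and 4.89 CPM against 14.0, 8.37 and 17.0 CPM (1.31, adjusted p = 0.714). The other 2 called were Il17c and Il23a, both under 1 CPM in every mouse. In 2 of the 24 tested genes 1 control group had no counts at all. Such genes passed the filter on low counts through other mice, so the number of cytokines called is not read as support. Of 32 chemokines, 7 (21.9%) were higher and 1 (3.13%) lower by the same rule. Ccl20, the CCR6 ligand that draws Th17 cells, measured 5.92, 7.57 and 4.04 CPM against 11.4, 8.74 and 16.1 CPM (1.05, adjusted p = 0.749). Ccl24, an eotaxin made by macrophages, was the lower one (-1.60, adjusted p = 0.669), and WT mouse 1 alone was far above the rest with 44.7 CPM. Without mouse 3 labelled Lcn2-/-, 3 of the 32 were called.

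Genes of the cornified envelope, the protein shell of dead keratinocytes, leaned upward. Of 48 tested, 7 (14.6%) were called higher and 0 lower, beside 1.35% and 0.928% of all tested genes. A positive difference was seen in 42, and the median was 0.30. Cnfn, or cornifelin, measured 22.8, 20.6 and 31.0 CPM in the WT mice and 39.9, 64.9 and 53.1 CPM in the others (1.09, SE 0.24, adjusted p = 0.271). Ivl, or involucrin, measured 74.6, 75.1 and 105 CPM against 121, 126 and 120 CPM (0.52, adjusted p = 0.649). The other 6 called were members of the Sprr2 cluster, whose near-identical copies can share reads, at 0 to 5.38 CPM. In 3 of the 48 tested genes 1 control group had no counts at all. Such genes passed the filter on low counts through other mice, so the number called is not read as support. The abundant Lor, or loricrin, differed by -0.60 (adjusted p = 0.856). The number called fell to 1 without WT mouse 2. Among 16 alarmins and antimicrobial genes 3 (18.75%, beside 1.35% of all tested genes) were called higher, Slpi, S100a8 and S100a9. S100a8 and S100a9 encode the calprotectin subunits of neutrophils and stressed keratinocytes, and for S100a9 the WT mice measured 11.3, 5.46 and 4.41 CPM and the others 10.4, 19.8 and 31.6 CPM (1.54, adjusted p = 0.62). The 1 called lower was Lyz1, a lysozyme gene (-1.24, adjusted p = 0.698).

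The genes that the study names for its RNA-seq, with Tnfsf12 added, showed few differences in vehicle-treated skin. Of these 15 genes, Lcn2 among them, only Il23a was called (6.67%, beside 1.35% of all tested genes called higher), and its groups overlapped. Tnf measured 2.03, 2.49 and 3.35 CPM in the WT mice and 6.34, 2.98 and 5.22 CPM in the others (0.89, adjusted p = 0.798). Il6 had at most 1.88 CPM in any mouse (1.67, adjusted p = 0.804). Tnfsf12, which encodes the cytokine TWEAK, measured 11.6, 20.4 and 10.05 CPM against 10.5, 6.45 and 6.52 CPM (-0.84, SE 0.31, adjusted p = 0.681), with overlapping groups. Tnfrsf12a, its receptor Fn14, differed by 0.36 (adjusted p = 0.84). The keratins Krt5, Krt14, Krt1, Krt10, Krt6b and Krt17 differed by between -0.26 and 0.25, with adjusted p-values of 0.969 or more. Krt16, a stress keratin of hyperproliferative epidermis, differed by 0.78 and Krt6a by 0.46 (adjusted p 0.798 and 0.952). Ly6g, a neutrophil marker, had between 0 and 0.22 CPM in the 6 mice, at or near the floor. Of 9 tested neutrophil genes, 7 had a positive difference, the median was 1.21, and 2 (22.2%, beside 1.35% of all tested genes) were called higher, S100a8 and S100a9 again. Their means stood at 0.56, 0.12 and -0.68 in the WT mice and at 0.52, 0.26 and 1.57 in the others on the log2 scale, so mouse 3 labelled Lcn2-/- was high and the groups overlapped.

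Genes of the molecular clock differed in both directions. In this oscillator, Arntl (BMAL1) and Clock or Npas2 form the activating pair, and Per, Nr1d and the PAR-bZIP genes Dbp, Tef and Hlf are their output and repressors, so that both arms run in opposite phases over the day. Of 20 tested clock genes, 3 were higher and 9 lower at an unadjusted p under 0.05, the former all from the activating arm, beside 2.65% and 3.95% of all tested genes. Arntl measured 16.1, 10.4 and 15.5 CPM in the WT mice and 27.8, 26.1 and 29.7 CPM in the mice labelled Lcn2-/- (0.99, SE 0.22, adjusted p = 0.271). Npas2 was higher by 1.21 (adjusted p = 0.441) and Clock by 0.25 (adjusted p = 0.749). Dbp measured 55.1, 53.1 and 46.2 CPM against 22.2, 14.9 and 15.8 CPM (-1.54, SE 0.29, adjusted p = 0.208). Per3 measured 50.2, 75.7 and 45.1 CPM against 30.9, 25.3 and 30.5 CPM (-0.98, SE 0.19, adjusted p = 0.208). For Arntl, Dbp and Per3 the groups were well separated and no single mouse carried the difference. The other lower genes were Tef, Per2, Nr1d2, Per1, Hlf, Usp2 and Bhlhe41, with log2 differences from -1.12 to -0.48. None of the 12 passed the adjusted threshold. No source used here gives the hour of tissue collection of each mouse, so the hour of collection and the genotype label cannot be told apart.

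**Figure D3:**
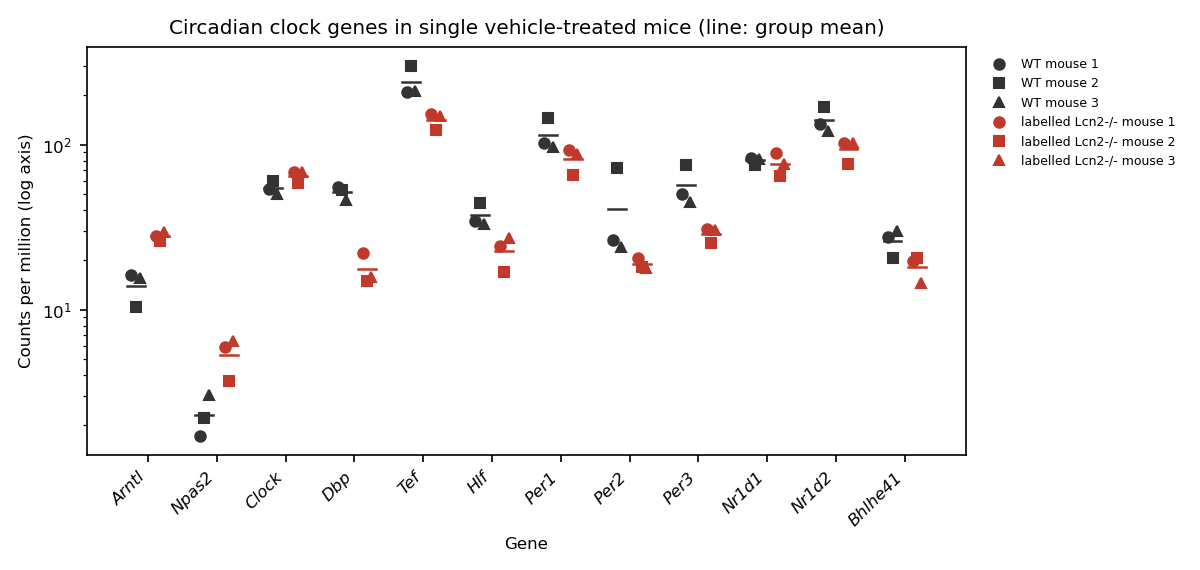
CPM (log axis) of 12 circadian clock genes in each vehicle-treated mouse, WT in black and labelled Lcn2-/- in red, with a line at each group's mean. The red points lie above the black ones for Arntl and Npas2 and below them for Dbp, Tef, Hlf, Per1, Per2, Per3, Nr1d2 and Bhlhe41.

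The promoter of Per3 is shown because it holds the D-box, searched as TTATGNAA on both strands, which is the element that Dbp, Tef and Hlf bind. It was found for 2 of 17 clock genes with a window (11.8%), for 2.83% of tested genes with windows and for 3.99% of all genes with windows. The matches, in capitals, begin 205 and 158 bases before the gene start, in the window chr4:151044616-151044915 on the minus strand (RefSeq, GRCm38.p6).
Per3: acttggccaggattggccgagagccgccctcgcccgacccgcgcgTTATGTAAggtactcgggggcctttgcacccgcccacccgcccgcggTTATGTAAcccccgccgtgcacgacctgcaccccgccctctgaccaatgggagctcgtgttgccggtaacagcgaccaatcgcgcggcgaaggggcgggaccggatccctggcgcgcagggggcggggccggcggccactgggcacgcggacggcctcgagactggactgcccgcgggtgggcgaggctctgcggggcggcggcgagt
The E-box CACGTG, which the activating pair binds, was found for 5 of the 17 clock genes (29.4%). It was found for 10.8% of tested genes with windows and for 8.09% of all genes with windows.

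Immediate early and heat shock genes respond within minutes to handling and stress. Of 24 tested, 1 was higher and 7 were lower at an unadjusted p under 0.05, beside 2.65% and 3.95% of all tested genes. Of the 7, 1 passed a fold of 2 (4.17% of the 24, beside 0.928% of all tested genes). Their means stood at -0.17, 0.59 and -0.43 in the WT mice and at -0.25, -0.36 and -0.28 in the others on the log2 scale, so WT mouse 2 was high and WT mouse 3 below every mouse labelled Lcn2-/-. The gene past 2-fold was Klf2, a flow-responsive factor of endothelium and resting lymphocytes, with 34.2, 63.0 and 23.9 CPM in the WT mice and 23.7, 12.4 and 18.9 CPM in the others (-1.14, adjusted p = 0.565). Hspa1b, an inducible HSP70, measured 65.4, 68.4 and 59.1 CPM against 34.1, 39.9 and 48.6 CPM (-0.65, SE 0.14, adjusted p = 0.271). Its neighbouring copy Hspa1a, which can share reads with it, was lower too (-0.44, adjusted p = 0.705). Fosb, part of the AP-1 factor and singled out after its values were seen, was extreme in 1 animal. It had 3350 counts in WT mouse 2 and between 73 and 518 counts in the other 5 mice.

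Among the 10 lower genes with the smallest p-values, Ky had the widest gap. Ky measured 39.4, 67.4 and 44.0 CPM in the WT mice and 11.1, 5.49 and 10.4 CPM in the mice labelled Lcn2-/- (log2 difference -2.48, SE 0.27, adjusted p = 0.0132, edgeR). The call was lost without mouse 3 labelled Lcn2-/- (adjusted p = 0.0562), by edgeR on the 6 control mice alone (0.772) and with a replicate block (0.138). The log2 differences were -2.59, -2.46 and -2.47. DESeq2 on the same 6 mice gave an adjusted p of 4.79e-09. The other 9 were Tpgs1, a subunit of the tubulin polyglutamylase complex, Ccdc85b, Dbp, 1110065P20Rik, Ndufaf8, an assembly factor of respiratory complex I, Eva1b, Ascl2, Rnaseh2c, a subunit of ribonuclease H2, and ENSMUSG00000118642, which has no name in the annotation used. Tpgs1 measured 22.4, 22.7 and 14.5 CPM against 7.75, 7.03 and 8.22 CPM (-1.37, SE 0.20, adjusted p = 0.0728). Rnaseh2c measured 29.5, 23.3 and 18.5 CPM against 11.1, 11.1 and 12.5 CPM (-1.04, SE 0.21, adjusted p = 0.24). In both genes the mice labelled Lcn2-/- were nearly equal and the WT mice more spread. Their GC content was 65.3% and 58.1%, and over the 9 of these 10 genes with a known value it was 58.1% at the median, beside 49.6% over all tested genes. Across 18187 genes the log2 difference had a Spearman correlation of -0.13 with GC content, as a description. Both called genes kept their call after a correction for GC content, as did 158 of the 172 genes called lower without adjustment.

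Other muscle genes differed less than Ky. Of 30 tested genes of fast skeletal muscle, the fibre type of the sheet under the skin, 1 (3.33%) was called lower and 0 higher. Among all tested genes the shares were 0.928% and 1.35%. A negative difference was seen in 28, and the median was -0.34. Together the 30 genes took 22430, 21900 and 22080 CPM in the WT mice and 19280, 10880 and 20330 CPM in the mice labelled Lcn2-/-. Mouse 2 labelled Lcn2-/- was the low one, and the other 5 mice lay closer together. Every mouse labelled Lcn2-/- lay below every WT mouse for 10 of the 30 genes, beside 5.18% of all tested genes. The list means on the log2 scale were -0.0056, 0.042 and -0.036 in the WT mice. In the others they were -0.145, -0.994 and -0.1. The 1 called gene was Tnnc2, fast troponin C, at 3.23, 2.28 and 5.32 CPM against 2.20, 1.49 and 1.47 CPM (-1.05, adjusted p = 0.643). Ckm, muscle creatine kinase, measured 1058, 1127 and 1243 CPM against 898, 477 and 915 CPM (-0.58, SE 0.23, adjusted p = 0.705). In bulk skin, fewer cells of a type and less RNA per cell cannot be told apart. Without mouse 2 labelled Lcn2-/- the median of the muscle list was -0.12, and Ky still differed by -2.22 (adjusted p = 0.0109).

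Hair shaft and inner root sheath genes showed the widest spread between single mice, in both groups. Krt71, a keratin of the inner root sheath, measured 922, 0.172 and 445 CPM in the WT mice and 39.0, 2879 and 1097 CPM in the mice labelled Lcn2-/-. Krt25, a type I keratin of the same sheath, measured 877, 0.172 and 478 CPM against 47.6, 2347 and 896 CPM. WT mouse 2 was nearly without these transcripts, mouse 1 labelled Lcn2-/- was the lowest of its group but far above the floor, and the log2 differences of 1.55 and 1.28 were within the spread (adjusted p 0.969 and 0.974). The 25 keratins of inner root sheath and cortex in the table took 3538, 27.4 and 2044 CPM in the WT mice and 250.2, 12920 and 4913 CPM in the others. All 25 had a positive difference, with a median of 2.59. Of these, 12 (48%) were called higher and 0 lower, beside 1.35% and 0.928% of all tested genes. None had groups that did not overlap, and the number called was 7 without WT mouse 2 and 5 without mouse 2 labelled Lcn2-/-. The 58 keratin-associated protein genes, whose products fill the hardening hair shaft, took 29.6, 1.89 and 27.5 CPM against 1.91, 4278 and 475 CPM. Shaft genes were thus high in mice 2 and 3 labelled Lcn2-/- and low in the remaining 4 mice.

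**Figure D4:**
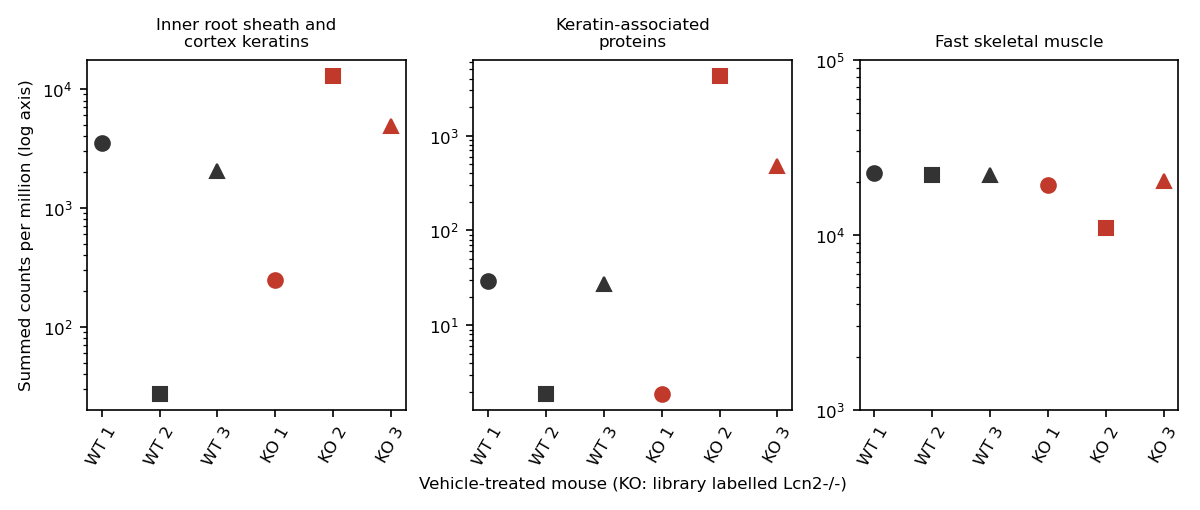
Summed CPM (log axes, each with its own range) of hair keratins, keratin-associated proteins and fast muscle genes in each vehicle-treated mouse, WT in black and labelled Lcn2-/- (KO) in red. The keratin sum runs from 27.4 to 3538 within the WT mice and from 250.2 to 12920 within the KO mice, while the muscle sum is lower in KO mouse 2 (10880) than in the other 5 mice (19280 to 22430).

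Of the 58 keratin-associated protein genes, 28 had enough reads to be tested, and 27 (96.4%, beside 1.35% of all tested genes) were called higher by the unadjusted rule. These genes passed the filter on low counts mainly through the mice in which they were high, so the count is not read as support. Their groups overlapped in every case, with mouse 1 labelled Lcn2-/- at or near 0. Krtap15, for example, had 0 counts in the WT mice and in mouse 1 labelled Lcn2-/-, and 8564 and 286 counts in mice 2 and 3, and Krtap14 had at most 2 counts in the first 4 mice and 4159 and 154 in the last 2. Krt86, a cortex keratin, measured 2.96, 0 and 0.585 CPM in the WT mice and 0, 204 and 30.9 CPM in the others. The number called among the 28 was 11 without mouse 2 labelled Lcn2-/- and 12 without WT mouse 2. The 10 widest ranges in the WT group were those of Krt71, Krt25, Krt73, Krt27, Krt72, Crnn, S100a3, Dsg4, Foxe1 and Gm49425, each lowest in WT mouse 2. The 10 widest among the mice labelled Lcn2-/- were those of Krtap7-1, Krtap15, Krtap8-1, Krtap1-5, Krtap14, Krtap3-1, Krt86, Krt81, Krt72 and Gm10229, each highest in mouse 2 and at or near 0 in mouse 1. The same mice differed in 36 hair follicle regulators, though less. Their means stood at 0.40, -0.72 and 0.32 in the WT mice and at -0.33, 0.61 and 0.28 in the others on the log2 scale, with 0 genes called and a median of 0.01. The mean of 38 mitotic and S-phase genes was likewise lowest in WT mouse 2 (-1.03) and was highest in WT mouse 3 (0.622) and mouse 2 labelled Lcn2-/- (0.615).

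**Figure D5:**
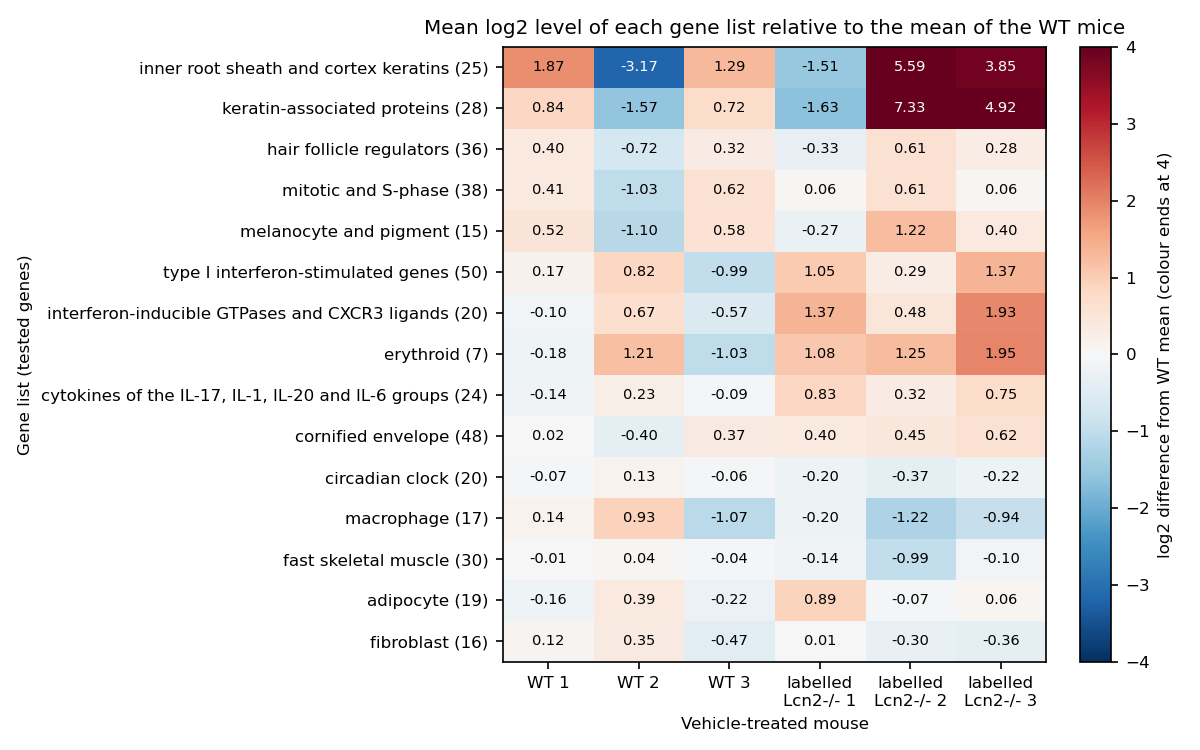
Mean log2 level of 15 gene lists (rows, with the number of tested genes) in each vehicle-treated mouse (columns), relative to the mean of the WT mice. The hair rows change sign between mice of the same group, the clock row is lower in each mouse labelled Lcn2-/- (-0.37 to -0.20) than in each WT mouse (-0.07 to 0.13), and the interferon rows are highest in mouse 3 labelled Lcn2-/- (1.37 and 1.93).

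Macrophage genes were lower, and this rested on single mice. Of 17 tested markers, 7 (41.2%) were called lower and 0 higher, beside 0.928% and 1.35% of all tested genes. All 17 had a negative difference, and the median was -0.96. Folr2, the folate receptor of resident macrophages, measured 72.0, 121 and 19.3 CPM in the WT mice and 34.8, 18.9 and 16.8 CPM in the others (-1.59, SE 0.52, adjusted p = 0.639). C1qa, a complement C1q chain, measured 328, 682 and 152 CPM against 248, 107 and 130 CPM (-1.26, adjusted p = 0.705). WT mouse 2 was the highest of the 6 in both genes, and WT mouse 3 lay within the other group. The number called was 0 without WT mouse 2 and 11 without WT mouse 3. After IMQ the same list had a median of 0.66. Of 17 tested T and NK cell genes, 2 (11.8%) were called lower and 0 higher, beside the same shares of all tested genes. Their median was -0.22, 4 had a positive difference, and 1 was higher at an unadjusted p under 0.05. The 2 called were Gzma and Klrb1c, of cytotoxic lymphocytes, and in both WT mouse 2 was the highest (9.20 and 2.84 CPM). Fibroblast genes had a median of -0.24 with 0 called, and collagen chains one of -0.08 with 0 called. Sebaceous gland, pigment, Langerhans cell, mast cell, endothelial, smooth muscle and Schwann cell genes had 0 called as well, with medians from -0.37 to 0.42.

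Fat and B lineage genes varied from mouse to mouse. Lep, or leptin, was the 1 of 19 adipocyte genes that was called (5.26%, beside 1.35% of all tested genes called higher). It measured 47.5, 69.5 and 31.3 CPM against 168, 159 and 57.3 CPM (1.38, adjusted p = 0.749). Among B lineage genes 0 were called. Igkc, the kappa light chain, measured 21.9, 87.3 and 35.1 CPM in the WT mice and 311, 62.7 and 62.6 CPM in the others, so that mouse 1 labelled Lcn2-/- stood out.

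The same genotype labels were compared in the 6 IMQ-treated mice. Of all tested genes, 12.5% were higher and 14.5% lower after IMQ at an unadjusted p under 0.05, and 2.15% had a genotype difference that itself changed with IMQ (interaction, adjusted p under 0.05). The type I interferon-stimulated list was again higher, with a median of 0.76, 16 genes higher and 0 lower at an unadjusted p under 0.05. The GTPases and CXCR3 ligands had a median of 0.44, with 0 of 20 higher or lower by edgeR at that p. The cytokine list turned round, with a median of -0.66 after IMQ and 9 of 24 genes lower and 0 higher at that p. In 5 of the 24 the interaction had an adjusted p under 0.05. Cxcl10 differed by 0.46 after IMQ (adjusted p = 0.585), and its interaction was -4.06 (adjusted p = 0.0247). Cmpk2 differed by 1.17 (adjusted p = 0.0531), Rsad2 by 1.18 (adjusted p = 0.153) and Ifit1bl1 by 1.91 (adjusted p = 0.0648). Ifit1 differed by 0.87 (adjusted p = 0.261) and Mx2 by 0.68 (adjusted p = 0.443). Mx1 differed by only 0.075 after IMQ (adjusted p = 0.939), and its interaction was -2.94 (adjusted p = 0.0498, edgeR). The clock list had a median of 0.02 after IMQ, and Dbp was higher by 1.09 (adjusted p = 0.0525) where it had been lower. Of the 10 lower genes with the smallest p-values, 10 were higher in the IMQ-treated mice labelled Lcn2-/-, 5 of them with an adjusted p under 0.05, beside 48.7% of all tested genes with a positive difference after IMQ. Eva1b, for instance, differed by -1.35 without and by 1.72 with IMQ, and Tpgs1 by -1.37 and 1.31. All 10 had an interaction with an adjusted p under 0.05, but they had been chosen by their control difference, which is one arm of that test. Levels of GC-rich genes moved in the same direction as these genes. The Spearman correlation of a library's levels with GC content was between -0.11 and -0.08 in the vehicle-treated mice labelled Lcn2-/- and between 0.08 and 0.14 in the IMQ-treated ones, and between -0.05 and 0.07 in the WT mice, and its part in the result was not tested.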

How the data were processed

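RNA sequencing of back skin from 12 mice, 3 per group, was deposited by the authors as a table of raw read counts for 56923 genes. The labels' processing notes name HISAT and the build mm8, without versions, while the identifiers are Ensembl gene IDs, of which 52073 (91.48%) were named with GENCODE M21 (GRCm38). The unmatched rows held 0.57% of the counts. Groups were taken from the labels. The gene lists and the members described were chosen with earlier results of these data known, and 3 lists of mitochondrial and ribosomal genes were added for this report after the data were seen.

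Genes were kept with edgeR's filterByExpr (minimum count 10), which left 18529. They were normalized by TMM and fitted over all 12 mice with the quasi-likelihood test of edgeR 4.0.16 (R 4.3.3, limma 3.58.1), with 1 coefficient per group and Benjamini-Hochberg adjustment over all tested genes. A gene was called with a p under 0.05 and a fold above 2. The labels number the mice within each group. Deviations of same-numbered control mice from their group means correlated by -0.39, -0.56 and -0.02, so the levels showed no pairing by number. This check cannot tell whether same-numbered mice shared a litter, a cage or a day of collection. The groups hold different animals, and littermate relations between single mice are not given in the sources used here.

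Named genes were Lcn2 and the genes the study names for its RNA-seq, with Tnfsf12. To these were added the 10 higher and the 10 lower genes with the smallest p among those with a fold above 2, no overlap between groups and 1 CPM or more on average, and the genes called within 10 Mb of Lcn2. The 10 widest ranges within each control group among protein-coding genes of at least 5 CPM, and the called and most abundant members of each list, completed the rule. Other genes, among them 1110008P14Rik, the remaining neighbours of Lcn2, Irf9, Arntl, Clock, Per3, Hspa1b, Ckm and Ivl, were named after their values were seen. Alternatives were RLE size factors, DESeq2 1.42.0, edgeR on the 6 control mice, other filters, a replicate block, windows of 5 and 20 Mb, leaving out each mouse and, chosen after seeing the data, a correction for GC content (a spline with 4 degrees of freedom). The test was checked on simulated data for this comparison, where an adjusted p under 0.05 alone, with no fold threshold, counted as recovery. It recovered 43.5% of 200 genes changed by 2-fold, 78.5% of those changed by 4-fold and 89.5% of those changed by 8-fold. False calls numbered 3, 2 and 9. Counts were drawn independently for each gene, so these shares do not cover genes that move together in single mice. Reads carry no molecular identifiers, so floors cover counting error only. With 3 mice against 3, an exact permutation test of a single value cannot go below p = 0.1. Some items are not reported here.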

Additional observations from a re-analysis of the deposited data

Results flagged for a closer look

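For 17 of the 64 named genes the difference between the genotype labels was not the same without and with IMQ (interaction of genotype label and treatment, edgeR, adjusted p under 0.05). Of these, 15 were among the 20 genes chosen by their difference in the control mice, which is one arm of this test, so an interaction was favoured by the choice. The values are the log2 difference (labelled Lcn2-/- minus WT) after IMQ minus that without IMQ. Among the genes higher in the control mice labelled Lcn2-/-, it was -4.06 for Cxcl10, -1.81 for Zc3h12a, -2.94 for Mx1, -1.84 for Il1f6 and -2.44 for Gm44613. Among the lower genes it was 2.68 for Ky, 2.68 for Tpgs1, 3.60 for ENSMUSG00000118642, 1.75 for Ccdc85b, 2.63 for Dbp, 2.59 for 1110065P20Rik, 1.54 for Ndufaf8, 3.08 for Eva1b, 1.90 for Ascl2 and 2.12 for Rnaseh2c. Of the genes within 10 Mb of Lcn2 it was 2.44 for Endog and 2.25 for Fam78a. Endog and Fam78a were named because they were called in the control mice, so the choice favoured their interaction as well. The lower genes were rich in GC, with a median of 58.1% beside 49.6% over all tested genes. The correlation of a library's levels with GC content turned from negative in the control mice labelled Lcn2-/- to positive in the IMQ-treated ones, and its part in these interactions was not tested.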

How the results depend on the processing

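With an adjusted p under 0.05 the main test called 1 gene higher and 1 lower. DESeq2 called 49 and 30 on all 12 mice and 38 and 15 on the 6 control mice, edgeR on the 6 control mice called 0 and 0, and edgeR without a filter on low counts called 2 and 3. Cxcl10 was not among the 2 genes called higher without the filter (adjusted p = 0.0739, edgeR). Leaving out each mouse gave 0 to 9 higher and 0 to 11 lower. Without adjustment, the 250 higher and 172 lower genes became 414 higher with no filter on low counts, 122 and 112 with at least 10 counts in every control mouse, and 491 and 732 with no fold threshold, and leaving out each mouse gave 193 to 303 higher and 72 to 412 lower. The lowest count of lower genes was without WT mouse 2 and the highest without WT mouse 3. DESeq2 on all 12 mice shared 220 of the 250 and 164 of the 172. Of the genes near Lcn2, 7 were called within 5 Mb and 12 within 20 Mb.

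A replicate block, although same-numbered mice did not correlate positively, gave 0 higher and 0 lower with adjustment, 193 and 131 without, a log2 difference of 0.89 for Lcn2, and turned Krt6b to 0.125.

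Lcn2 stayed higher in the mice labelled Lcn2-/- under each alternative. Directions of genes far from any threshold turned when single mice were left out. Krt5 ran from -0.113 (without WT mouse 2) to 0.29, and also stood at -0.0489 and -0.0077 without mice 2 and 3 labelled Lcn2-/-. Krt6b ran from -1.28 to 0.27, and was positive without WT mouse 1 or 3 (0.213 and 0.258) and without mouse 1 or 3 labelled Lcn2-/- (0.206 and 0.27). Krt14 ran from -0.22 to 0.141 and Krt1 from -0.36 to 0.011, both positive without WT mouse 3. Adamtsl2 ran from -1.97 to 0.025 (without WT mouse 2) and Ly6g from -0.22 (without mouse 3 labelled Lcn2-/-) to 1.77. Without mouse 2 labelled Lcn2-/- Krt73 fell to the lowest of -0.26 to 1.48 and Gm49425 to the lowest of -0.021 to 1.67. Foxe1 ran from -1.47 to 0.85, and was positive without WT mouse 1 (0.85) and without mouse 1 labelled Lcn2-/- (0.0197). The cause was not tested. With 3 mice a group and the spread between them, differences near 2-fold were often below what the test recovers.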

Other observations

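Transcripts outside the comparisons also set single mice apart. WT mouse 2 had 100 CPM of mt-Nd3, a mitochondrially encoded subunit of complex I, while the other 5 mice had between 6.30 and 8.64 CPM, and the other 12 mitochondrially encoded genes were not called. Of 75 tested nuclear genes of the respiratory chain, 0 were called. Of these, 67 had a negative difference and 6 were lower at an unadjusted p under 0.05, beside 3.95% of all tested genes, with a median of -0.09. Their means stood at -0.06, -0.10 and 0.16 in the WT mice and at -0.0065, -0.21 and -0.18 in the others on the log2 scale, so the groups overlapped and WT mouse 3 was the high one. The 74 tested mitochondrial ribosomal protein genes had a median of -0.08 with 6 lower, and the 78 tested cytosolic ribosomal protein genes had a median of -0.01 with 1 lower. These lists were added after the data were seen. Pigment genes followed the hair cycle transcripts in being lowest in WT mouse 2 and highest in mouse 2 labelled Lcn2-/- (means of -1.10 and 1.22 on the log2 scale over 15 genes).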
